A study of Mus musculus with 12 samples.

Results

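Oxidative phosphorylation genes were taken from the array by name. They are the genes whose annotated name begins with Ndufa, Ndufb, Ndufc, Ndufs, Ndufv, Uqcr, Cox4, Cox5, Cox6, Cox7, Cox8 or Atp5, with Sdha, Sdhb, Sdhc, Sdhd and Cyc1. This rule used no measured value and gave 83 genes with 114 probes, of which 82 were among the 22129 genes tested on the array. In all, 79 encode structural subunits, namely 35 of complex I, 4 of complex II, 8 of complex III, 17 of complex IV and 15 of complex V. Ndufa4 was counted with complex IV, where its protein is now placed. The other 4 genes share the name but encode no subunit: Ndufaf1 is a complex I assembly factor, Cox7a2l joins complexes into supercomplexes, Cox4nb is now named Emc8 and belongs to a complex of the endoplasmic reticulum, and Atp5s is now named Dmac2l. Each gene was read by its brightest probe over the 12 arrays. Cox8c, an isoform of testis, was too dim to be tested.

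The study measured total RNA of whole hearts from male C57BL/6 mice with and without the glucocorticoid receptor (GR) in cardiomyocytes. The knockouts, named cardioGRKO, carried a floxed GR allele and Cre recombinase under the αMHC promoter, which is active in cardiomyocytes. The controls, named GRflox, were littermates with the floxed allele and no Cre, so effects of Cre itself and of receptor loss cannot be told apart. Each genotype was sampled at 1 month and at 2 months, with 3 hearts in each of the 4 groups, and p-values measure the spread between these hearts. Other cells of the heart keep the receptor gene and contribute RNA, and in bulk tissue fewer cells of a type and less RNA per cell cannot be told apart.

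The respiratory chain passes electrons from NADH, through complex I, and from succinate, through complex II, to coenzyme Q. Complexes III and IV carry the electrons on to oxygen by way of cytochrome c, and complex V uses the proton gradient built up by complexes I, III and IV to make ATP. Heart muscle depends on this pathway for most of its ATP, and several complex IV subunits exist in a form found in most tissues and a form of heart and skeletal muscle, the latter increasing after birth.

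The 60-base probe of Sdhb is printed first, since every level given for a gene is the brightness of such a probe. Sdhb, the iron-sulfur subunit of complex II, had the smallest unadjusted p of the set for the knockout averaged over both ages. On mouse build mm7 the array annotation places the probe at chr4:140345040-140349607 on the plus strand. This span is wider than the probe itself, and exon or UTR status was not annotated in the files used here. No base is marked.
Sdhb: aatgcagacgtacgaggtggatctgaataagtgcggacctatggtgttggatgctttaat

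Levels are given in log2 units relative to the 75th percentile of each array's processed signal, and a difference between groups is a log2 fold change. The label of the set held: Sdhb, Atp5g1 and Ndufb3 were well above background on all 12 arrays, as were 81 of the 83 genes, and 76 of the 78 tested subunits were in the top decile of genes by brightness. The GR gene Nr3c1 lay between 1.99 and 2.56 in the 6 control hearts and between 0.86 and 1.31 in the 6 knockout hearts, without overlap. The 75th percentile ran from 885.8 to 1549.1 intensity units and 67.02% to 82.01% of probes were well above background. Slides and groups were partly mixed: slide 1 held all 1-month controls and nothing else, and slide 4, scanned on a second day, held cardioGRKO_1month replicate 1 and cardioGRKO_2month replicate 3. The highest share of probes above background was on GRflox_2month replicate 2.

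The comparison of knockouts with controls at 1 month asks how these transcripts differ at the younger age. Most sat slightly lower in the knockouts: 73 of the 82 tested genes were below 0, where 43% of all genes were, with a median of -0.135 against 0.042 over all genes. No gene of the set passed an adjusted p of 0.05 (limma with Benjamini-Hochberg adjustment over all genes, 0.0271% of all genes called), while at an unadjusted p under 0.05 there were 4 lower genes (3.03% of all genes) and 0 higher (2.96%). The ranges of the 2 groups did not overlap for 23 genes that were lower in the knockouts (8.88% of all genes) and for 0 that were higher (8.91%). Without GRflox_1month replicate 3 the median was -0.085 and 64 genes were below 0.

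All complexes had a median below 0 at 1 month. Complex V, the ATP synthase, had 15 of 15 genes below 0 and a median of -0.187, and complex III had 8 of 8 and a median of -0.159. Complex I had 32 of 35 with a median of -0.111, complex IV 12 of 16 with -0.106 and complex II 3 of 4 with -0.248.

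Atp5g1, which encodes a proton-carrying c subunit, measured 7.95, 7.82 and 8.03 in the control hearts and 7.48, 7.57 and 7.59 in the knockouts at 1 month. Every knockout heart was below every control, and the log2 fold change was -0.39 (SE 0.12, n = 3 per group; limma adjusted p = 0.728). Its paralog Atp5g2 encodes the same mature protein and measured 6.89, 7.04 and 7.09 in controls and 6.59, 6.70 and 6.64 in knockouts, a log2 fold change of -0.36 (SE 0.18). Of the other ATP synthase genes, Atp5d (delta subunit) was at -0.25 (SE 0.10) and Atp5a1 (catalytic alpha subunit) at -0.08 (SE 0.11), the highest of complex V.

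In complex I the lowest value was that of the accessory subunit Ndufa3 (-0.24, SE 0.10), with non-overlapping groups, and the highest that of Ndufa11, an accessory subunit of the membrane arm (0.09, SE 0.15). A dimmer Ndufa3 probe gave 0.01, so that value rests on 1 probe. Uqcrh, the hinge protein of complex III, had -0.23 (SE 0.11) and Uqcrb, which lies at the coenzyme Q site, -0.03 (SE 0.11). Cox7c, a small complex IV subunit, had -0.35 (SE 0.28), and the heart and muscle isoform Cox7a1 -0.31 (SE 0.16). The Cox7a1 probe was saturated on 2 arrays, so its differences are approximate. Cox4i2, an isoform of lung, had 0.45 (SE 0.73) and was near background on these arrays, with a mean level of -4.92.

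Other values moved with the 1-month difference. The top decile of genes by brightness outside the set had a median of -0.060. The summed signal of 9 cardiomyocyte markers, in units of the 75th percentile, ran from 2533 to 3031 in the 1-month controls and from 1939 to 2509 in the knockouts, with 8 of 9 markers below 0. The sum of 5 endothelial markers ran from 38.3 to 40.2 in controls and 33.2 to 36.9 in knockouts, with 5 of 5 below 0. Sums of 3 erythroid markers ran from 951 to 1035 in controls and 757 to 917 in knockouts, with 3 of 3 below 0, and those of 6 skeletal muscle markers from 219 to 252 and from 174 to 214, with 3 of 6 below 0. None of these 4 sums overlapped between the groups. The sums of fibroblast, white and general fat, lung, lymphocyte and macrophage markers did overlap. Above 0 were 4 of 5 fibroblast, 4 of 5 white and general fat, 5 of 6 lung, 6 of 6 lymphocyte and 1 of 3 macrophage markers. The 4 brown fat markers were all above 0, their sums running from 30.7 to 130.0 in controls and 72.4 to 137.9 in knockouts, and the part of these markers in the result was not tested. All 1-month controls lay on a slide of their own, and at this age the slide and the genotype cannot be told apart. With quantile normalization the median was -0.030 against -0.005 over all genes, and 54 of the 82 genes were below 0. Centring each array on the top decile of genes gave -0.069 with 62 below 0.

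**Figure D1:**
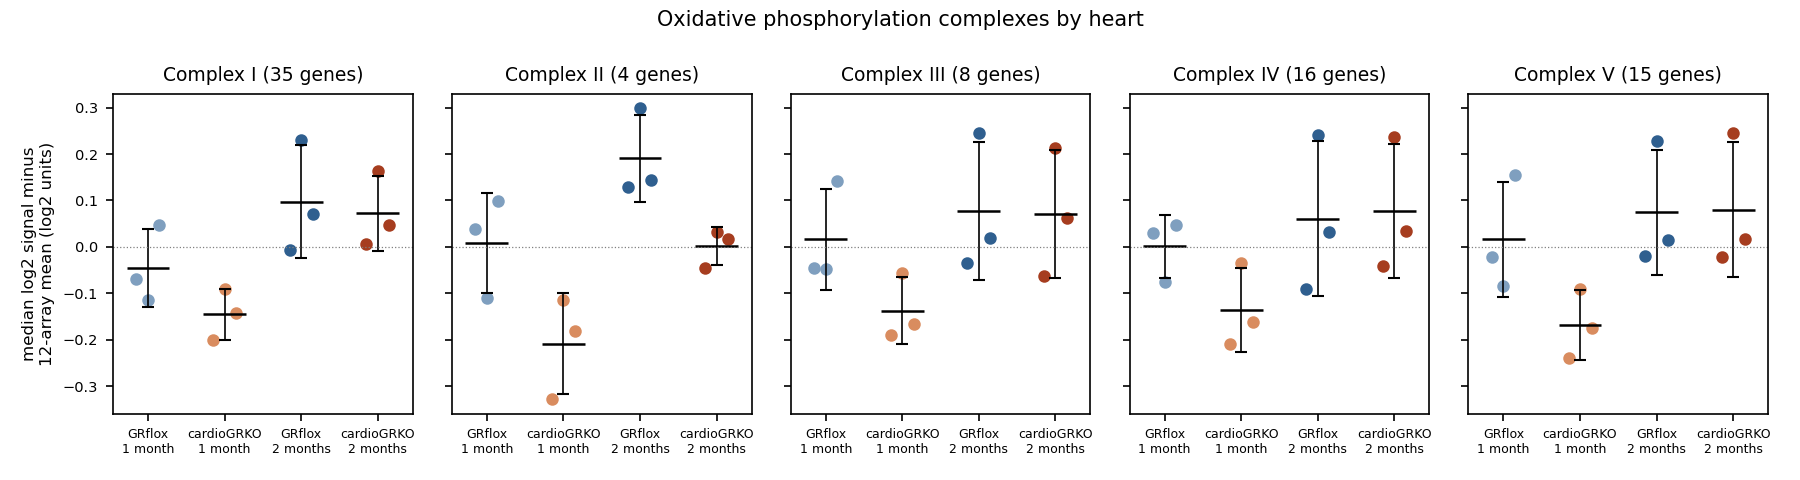
Median level of the tested subunits of each complex, as log2 signal minus each gene's mean over the 12 arrays, in each heart. Points are hearts, horizontal lines are group means and bars are SD over 3 hearts. The lowest heart of all 5 complexes is cardioGRKO_1month replicate 1, on slide 4. The 2-month groups are apart in complex II alone, and the 1-month groups are narrowly apart in complexes II, III and V.

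Over all 78 subunits the 1-month knockouts had medians of -0.206, -0.068 and -0.158 and the 1-month controls -0.043, -0.088 and 0.091. At 2 months the controls had -0.026, 0.237 and 0.035 and the knockouts -0.005, 0.186 and 0.040. GRflox_2month replicate 2 and cardioGRKO_2month replicate 2 were the highest hearts for complexes I, III, IV and V. These were also the hearts with the highest cardiomyocyte marker sums, 3222 and 3256, and the part of those markers was not tested.

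At 2 months the set as a whole lay near 0 and complex II stood out by value. The median was -0.011 against 0.027 over all genes, with 46 of 82 genes below 0 (45.4% of all genes). Without GRflox_2month replicate 2 the median was 0.057 and 21 genes were below 0. No gene of the set passed (0.131% of all genes called), 2 were lower (3.96% of all genes) and 1 was higher (3.71% of all genes) at an unadjusted p under 0.05. Complex medians were -0.020 for I, 0.003 for III, 0.022 for IV and -0.003 for V, against -0.205 for II. The lowest and highest genes of the others were Ndufv2 (-0.20) and Ndufb3 (0.30) in I, Uqcrc2 (-0.04) and Uqcrfs1 (0.08) in III, Cox6b1 (-0.14) and Cox4i2 (0.34) in IV, and Atp5d (-0.14) and Atp5b (0.14) in V. The 3 probes of Atp5b ran from -0.18 to 0.14, so its sign differed between probes. The groups did not overlap for 2 genes that were lower, a smaller share than the 6.21% of all genes. These were Sdha and Sdhb, which encode the catalytic part of complex II. They did not overlap for 1 gene that was higher, Ndufb3, again a smaller share than the 5.84% of all genes. GRflox_2month replicates 1 and 2 lay on slide 2, and GRflox_2month replicate 3 with cardioGRKO_2month replicates 1 and 2 on slide 3. Between the 2 knockouts and the 1 control on slide 3 the median was 0.053 against 0.001 over all genes, with 29 of 82 below 0.

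Complex II, succinate dehydrogenase, is the enzyme that the chain shares with the tricarboxylic acid cycle. With the scaling used here its 4 genes each kept their sign at both ages. Sdha encodes the flavoprotein that oxidises succinate. At 2 months it measured 5.20, 5.39 and 5.13 in controls and 4.94, 5.03 and 4.87 in knockouts, a log2 fold change of -0.29 (SE 0.11, limma unadjusted p = 0.029, adjusted p = 0.562). At 1 month it measured 5.05, 4.83 and 5.08 in controls and 4.64, 4.93 and 4.73 in knockouts, with overlapping groups and a log2 fold change of -0.22 (SE 0.11). A second Sdha probe gave -0.24 and -0.16 at these ages.

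Sdhb carries the iron-sulfur clusters that hand the electrons on. Its level was 7.22, 7.37 and 7.37 in the 2-month controls and 7.06, 7.13 and 7.10 in the 2-month knockouts (log2 fold change -0.22, SE 0.09, limma adjusted p = 0.565). The 1-month controls measured 7.10, 7.09 and 7.21 and the 1-month knockouts 6.73, 6.92 and 6.93 (-0.27, SE 0.09, limma adjusted p = 0.728). At each age every knockout heart was below every control heart of that age.

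Sdhc and Sdhd encode the membrane anchor, and they differed from each other in sign. Sdhc was at -0.34 (SE 0.16) at 1 month, without overlap, and at -0.18 (SE 0.16) at 2 months, with knockout hearts from 5.11 to 5.66 and controls from 5.42 to 5.79. A second Sdhc probe gave -0.35 and -0.69, so the size at 2 months differed between probes. Sdhd was at 0.12 (SE 0.13) and 0.08 (SE 0.13), with overlapping groups at both ages. Its sign depended on the processing: all 4 complex II genes were below 0 at 1 month with median centring and without GRflox_1month replicate 2. The complex II median was below 0 in every alternative run at both ages. At 1 month it ran from -0.484 with median centring (all genes -0.195) to -0.042 with normexp and quantile normalization (all genes -0.004). At 2 months it ran from -0.277 with the latter to -0.118 without cardioGRKO_2month replicate 1.

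**Figure D2:**
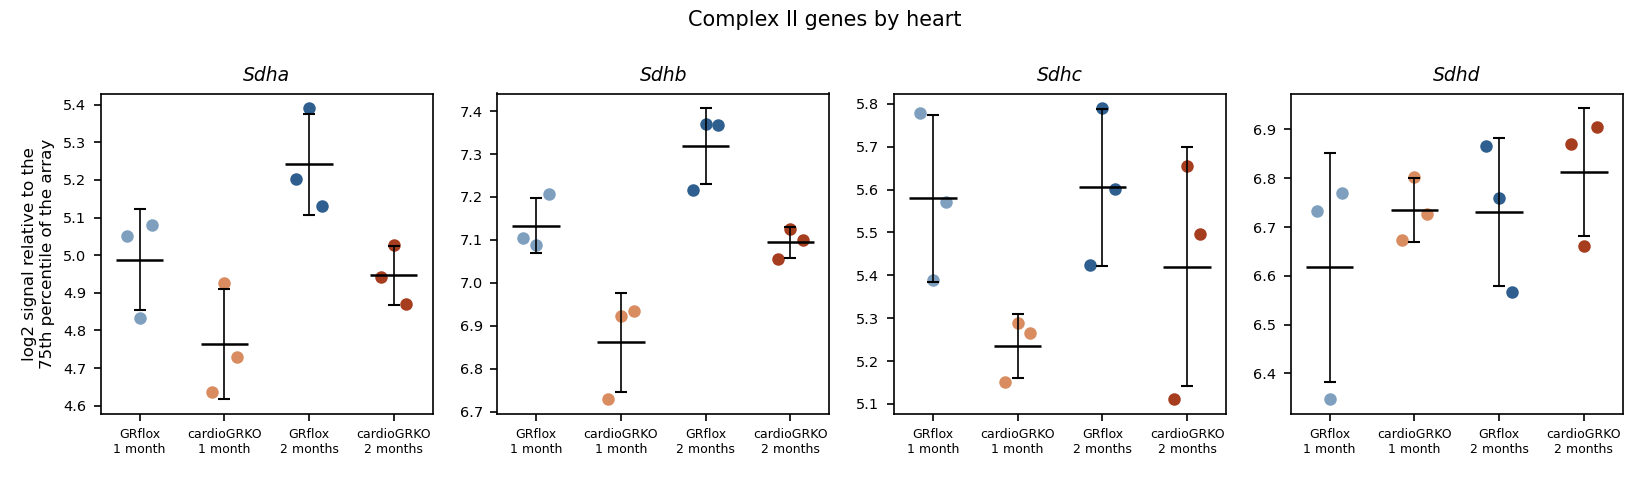
Level of each complex II gene, as log2 signal relative to the 75th percentile of the array, in each heart. Points are hearts, lines are means and bars are SD over 3 hearts; every Sdhb point of the knockouts lies below every control point of the same age, and the Sdhd groups overlap.

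Averaged over both ages, the knockout effect had a median of -0.067 over the set (all genes 0.037), and 70 of 82 genes were below 0 (43.2% of all genes). No gene passed (0.741% of all genes called), while at an unadjusted p under 0.05 there were 6 lower genes (6.2% of all genes) and 0 higher (5.42%). The 6 were Sdha, Sdhb, Sdhc, Ndufv2, Atp5g1 and Atp5d. Sdhb was at -0.25 (SE 0.06, limma unadjusted p = 0.0029, adjusted p = 0.134), Sdha at -0.26 (SE 0.08, adjusted p = 0.231) and Sdhc at -0.26 (SE 0.11, adjusted p = 0.418). With variances moderated by trend and robust fitting in limma, Sdhb passed at an adjusted p of 0.0471, and over 29 alternatives its adjusted p ranged from there to 0.790. Sdha and Sdhb were below 0 in all 29, the alternatives without the slide of the second scan day included, where Sdhb was at -0.22. These alternatives reuse the same hearts. In this comparison 9 of 9 cardiomyocyte markers were below 0, with Ryr2 lower past the test (-0.44, limma adjusted p = 0.0282). Also below 0 were 5 of 5 endothelial and 5 of 6 lung markers. Above 0 were 4 of 4 brown fat, 4 of 5 white and general fat, 5 of 5 fibroblast and 6 of 6 lymphocyte markers. Erythroid markers (1 of 3 below 0), macrophage markers (2 of 3) and skeletal muscle markers (3 of 6) were mixed. The part of these markers was not tested. Ndufv2, an iron-sulfur subunit of the NADH-oxidising module of complex I, was at -0.20 (SE 0.08).

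Ndufb3, an accessory subunit of the membrane arm of complex I, went the other way at 2 months. It measured 6.52, 6.42 and 6.66 in controls and 6.86, 6.84 and 6.80 in knockouts, a log2 fold change of 0.30 (SE 0.09, limma unadjusted p = 0.00976, adjusted p = 0.397). The knockout hearts lay within 0.06 of each other and above all 3 controls. At 1 month the groups overlapped, with -0.03 (SE 0.09). The effect at 2 months exceeded that at 1 month by 0.33 (SE 0.13, limma unadjusted p = 0.0319, adjusted p = 1). No gene of the set or of the array passed for this difference (0% called).

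**Figure D3:**
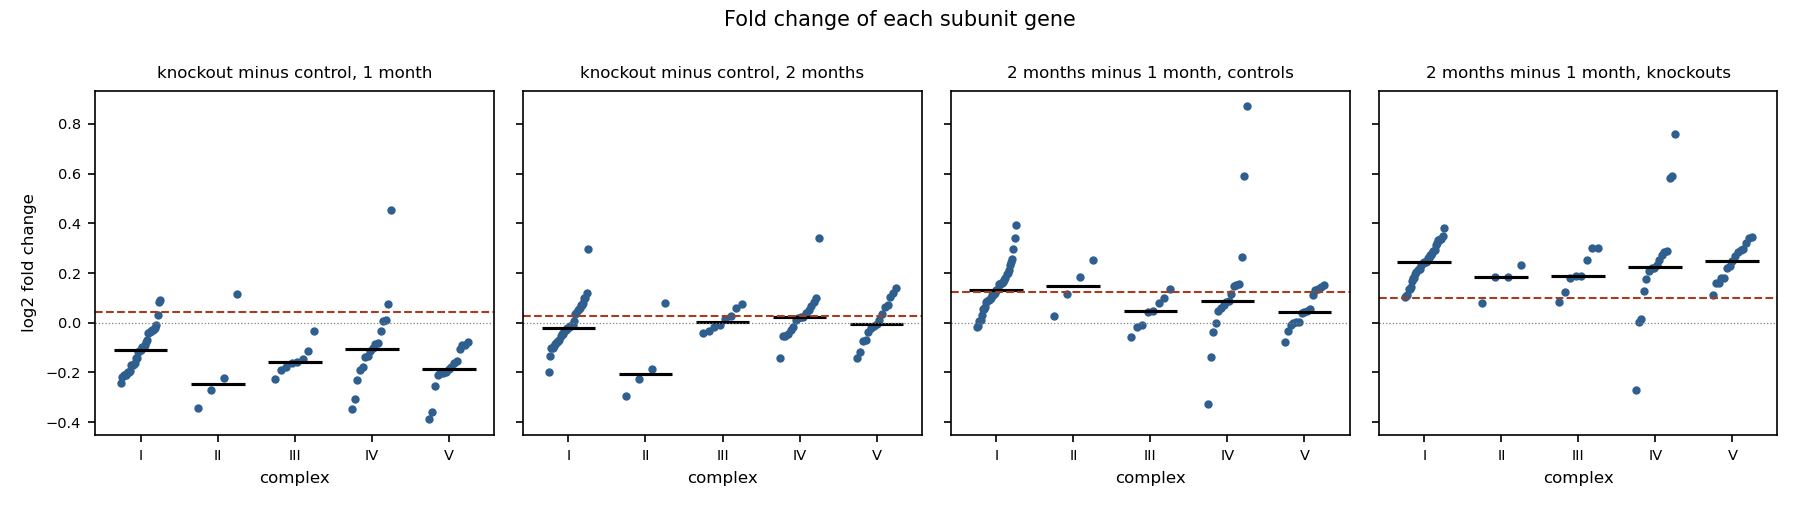
Log2 fold change of each tested subunit gene (points) by complex in 4 comparisons; horizontal bars are medians of a complex and the dashed line is the median of all genes. At 1 month the complex medians lie between -0.248 and -0.106, and at 2 months the median of complex II is -0.205 while those of the others lie between -0.020 and 0.022. The comparisons share groups: each group enters a comparison of genotype and a comparison of age.

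The change in the effect from 1 to 2 months had a median of 0.123 over the set against -0.024 over all genes, with 15 of 82 genes below 0 (54.2% of all genes). Complex II had a median of 0.006, complex V 0.187 and complex III 0.169. With quantile normalization the median of the set turned to -0.014. For the same difference 7 of 9 cardiomyocyte markers (median 0.22) and 3 of 3 erythroid markers (median 0.462) were above 0, and their part was not tested. At an unadjusted p under 0.05 there was 1 higher gene, Ndufb3 (0.791% of all genes), and 0 lower (0.569%). The largest value was that of Cox7c, whose 2-month knockouts measured 5.65, 5.57 and 4.59 and so spread more widely than any other group of that gene.

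The comparison of 2 months with 1 month follows the set as the heart matures. Averaged over genotypes, 79 of the 82 genes were above 0, with 3 below (34.3% of all genes), and the median was 0.162 against 0.122 over all genes. A total of 4 genes rose (limma, adjusted p under 0.05), a share near the 4.18% of all genes that did, and none fell (4.54% of all genes). Unadjusted, 27 were higher (14.7% of all genes) and 1 was lower (10.7% of all genes).

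Ndufs3, which rose, encodes a core subunit of complex I. It measured 6.44, 6.68 and 6.83 in the 1-month controls and 7.07, 6.98 and 6.92 in the 2-month controls. In the knockouts it measured 6.56, 6.66 and 6.70 at 1 month and 7.07, 7.03 and 6.82 at 2 months. The mean rise was 0.34 (SE 0.08, limma adjusted p = 0.0364), and the ages did not overlap in either genotype.

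All 7 core subunits of complex I were above 0, with a median of 0.220 and Ndufs7 lowest at 0.16, and the 28 accessory subunits had a median of 0.166. Ndufa8 was the highest accessory gene at 0.39 (SE 0.11), with a limma adjusted p of 0.0684, and Ndufb7 the lowest at 0.08. In the other complexes the values ran from 0.10 (Sdhd) to 0.22 (Sdha) in II, 0.01 (Cyc1, cytochrome c1) to 0.20 (Uqcrc2) in III and 0.06 (Atp5d) to 0.25 (Atp5a1) in V. A dimmer Atp5a1 probe gave 0.11.

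Cox7a2l and Atp5s, which also rose, are not subunits. Cox7a2l, the supercomplex factor, measured 3.70 to 3.97 in the 1-month controls and 4.04 to 4.34 in the 2-month controls, and 3.67 to 3.88 and 4.08 to 4.22 in the knockouts. It rose by 0.36 (SE 0.08, limma adjusted p = 0.0240). Atp5s, named for a coupling factor of the ATP synthase, measured 2.37 to 2.57 and then 2.89 to 2.99 in controls and 2.45 to 2.73 and then 2.92 to 3.14 in knockouts. Its rise of 0.45 (SE 0.07, limma adjusted p = 0.00697) was the largest of the genes that passed, and a second probe gave 0.53. Among the alternatives that gave a value, Atp5s passed in 27 of 28, Cox7a2l in 15 of 28 and Ndufs3 in 9 of 29. Leaving out any 1 heart of 10 of the 12 lowered the count of genes that passed to 1 or 2.

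Within each genotype no gene of the set passed for age, with 2.08% of all genes called in controls and 0.7% in knockouts. In controls the median was 0.106 against 0.124 over all genes, 14 of 82 were below 0 (35.4% of all genes), and the ages did not overlap for 13 higher genes (14% of all genes) and 1 lower gene, Cox8a (8.42%). In knockouts the median was 0.232 against 0.098, with 2 of 82 below 0 (37.5%). There the ages did not overlap for 44 higher genes, 28 of them in complex I (14.1% of all genes), and for 1 lower gene, Cox6a1 (10.9%). At an unadjusted p under 0.05, 6 genes were higher in controls (8.72% of all genes) and 0 lower (7.1%). In knockouts 26 were higher (8.17%) and 0 lower (6.87%). Without GRflox_2month replicate 2 the median in controls was 0.037 and 36 genes were below 0. The 1-month controls shared no slide with the older ones, and in that genotype slide and age cannot be told apart. For the knockouts, 1 heart of each age lay on slide 4, and the median between them was 0.267 against 0.109 over all genes.

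The age values depended on scaling. Median centring of the arrays moved the age median of all genes in controls from 0.124 to -0.133 and that of the set to -0.152, and no gene of the set passed for the mean age effect. With quantile normalization the medians of the set were 0.051 in controls and 0.030 in knockouts, against 0.012 and 0.027 over all genes, and Atp5s alone passed for the mean age effect. Markers of other cells moved with age as well. The sum of 5 fibroblast markers ran from 275 to 349 at 1 month and from 216 to 279 at 2 months, with Col1a1, Col1a2 and Col3a1 lower past the test in both genotypes and Dcn above 0 at 0.17 in the mean age effect. All 5 endothelial, all 4 brown fat and all 3 macrophage markers were below 0 with age. So were 4 of 5 white and general fat markers (median -1.038) and 5 of 6 lung markers (median -1.704). Lung sums differed widely between hearts, from 0.18 to 59.87 in 1-month controls and 0.22 to 47.25 in 1-month knockouts. Above 0 with age were 7 of 9 cardiomyocyte, 6 of 6 skeletal muscle, 4 of 6 lymphocyte and 2 of 3 erythroid markers. The part of these markers in the age result was not tested.

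The 2 subunit genes below 0 with age, Cox6a1 and Cox8a, both belong to complex IV. Cox6a1, the isoform of most tissues, measured 8.13, 8.06 and 7.60 in the 1-month controls and 7.43, 7.65 and 7.73 in the 2-month controls, which overlap. Its 1-month knockouts at 7.98, 7.81 and 7.74 all lay above the 2-month knockouts at 7.40, 7.62 and 7.70. The mean difference was -0.30 (SE 0.11, limma unadjusted p = 0.0258, adjusted p = 0.138), the lowest of the set, where its heart and muscle counterpart Cox6a2 was at 0.19 (SE 0.13).

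Cox8a, the common isoform, was at -0.06 (SE 0.07) and its heart and muscle counterpart Cox8b at 0.27 (SE 0.09, limma adjusted p = 0.0925). Cox8b measured 7.07 to 7.47 in the 1-month controls and 7.38 to 7.71 in the 2-month controls, and 7.19 to 7.36 and then 7.45 to 7.68 in the knockouts. Cox7a2 was at 0.10 (SE 0.08) and Cox7a1 at 0.13 (SE 0.11). Cox8b and Cox7a1 are also abundant in brown fat, whose markers had a median of -1.20 for the same comparison. Cox4i1 was at 0.15 and its dim counterpart Cox4i2 at 0.82 (SE 0.52), and Cox6b1 at 0.08 with the testis isoform Cox6b2 at 0.59 (SE 0.27).

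To set these isoforms against the rest of the set, each array was also centred on its median tested member, a choice made after the data were seen. On that scale Cox6a1 measured 1.16, 1.05 and 0.51 in the 1-month controls and 0.35, 0.40 and 0.60 in the 2-month controls. The knockouts measured 1.22, 0.86 and 0.88 at 1 month and 0.33, 0.42 and 0.64 at 2 months. It fell by 0.49 (SE 0.13, limma adjusted p = 0.0313), while Cox8a was at -0.26 (SE 0.08, adjusted p = 0.0567) with the ages apart in controls and overlapping in knockouts. Since the set rose with age, this centring lowers the mean age values of its genes. The set median went from 0.162 to -0.031 and Cox6a1 from -0.30 to -0.49, so the pass depends on the chosen reference. Over 29 alternatives, this centring included, Cox6a1 was below 0 with age in all and passed in 3.

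**Figure D4:**
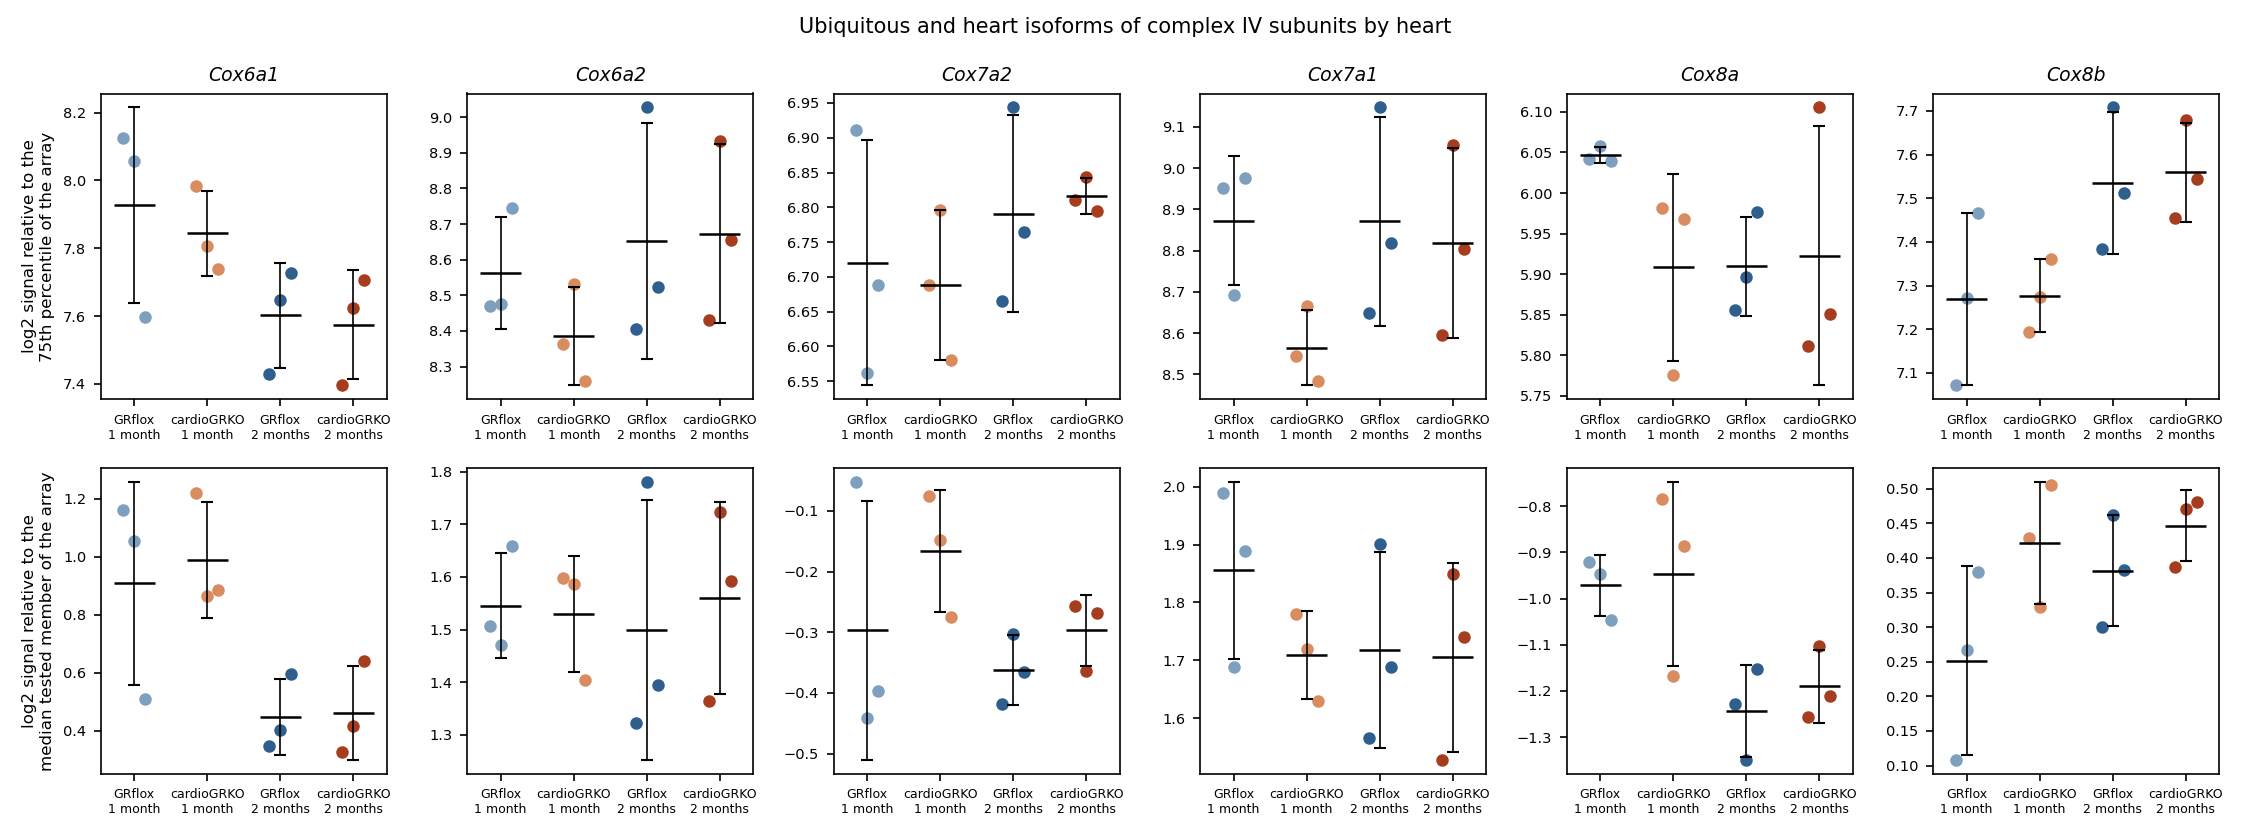
Level of 3 pairs of complex IV isoforms in each heart, relative to the 75th percentile of the array (top) and to the median tested member of the array (bottom), in log2 units. Points are hearts, lines are means and bars are SD over 3 hearts. In the lower row Cox6a1 has group means of 0.91 and 0.99 at 1 month and 0.45 and 0.46 at 2 months, and Cox6a2 shows no such step.

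Genes around the respiratory chain were read from lists by function. For the knockout averaged over ages 0.741% of all genes passed, and with age 4.18% of all genes rose. Of 14 tricarboxylic acid cycle genes, 13 were below 0 in the knockouts at 1 month, with a median of -0.188 (43% of all genes, median 0.042), and 10 at 2 months, with a median of -0.144 (45.4% of all genes, median 0.027). Suclg1, a subunit of the ligase that makes the succinate used by complex II, fell by 0.26 over both ages (SE 0.05, limma adjusted p = 0.0448), the one gene of the list that passed. Its values were -0.23 at 1 month and -0.29 at 2 months. With age, Idh2 and Suclg2 rose by 0.46 (SE 0.12, adjusted p = 0.0491) and 0.44 (SE 0.08, adjusted p = 0.0125).

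Of 14 regulators of mitochondrial genes, 3 rose with age, where 4.18% of all genes did. They were Tfb2m and Polrmt, of the mitochondrial transcription machinery, by 0.50 (SE 0.11) and 0.38 (SE 0.09), and the fatty acid receptor Ppara by 0.30 (SE 0.08). The coactivator Ppargc1a was at -0.22 (SE 0.19) and -0.42 (SE 0.19) in the knockouts at 1 and 2 months, and Tfam at -0.65 (SE 0.37) and 0.74 (SE 0.37). Of 34 assembly factors listed, 17 were matched by name on the array and tested, and 5 rose with age, among them Ttc19, which acts on complex III, by 0.65 (SE 0.11), and Atpaf1, which acts on the ATP synthase, by 0.37 (SE 0.07). Of 75 mitochondrial ribosomal protein genes, Mrpl37 fell in the knockouts over both ages by 0.34 (SE 0.05, limma adjusted p = 0.0248), and 3 rose with age, a share near that of all genes. Among 14 electron carrier and nucleotide transport genes, Etfdh, which feeds electrons from fat oxidation to coenzyme Q, rose with age by 0.37 (SE 0.07), as did Vdac3 by 0.29 (SE 0.06).

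Promoters of 3 complex II genes are printed, and Sdhc had no promoter entry. With the scaling used here Sdha, Sdhb and Sdhc lay below 0 in the knockouts and Sdhd above. These promoters were chosen after those values were seen. They are the 250 bases before the start site, from RefSeq on GRCm38.p6, at chr13:74350241-74350490 on the minus strand for Sdha, chr4:140961021-140961270 on the plus strand for Sdhb and chr9:50603850-50604099 on the minus strand for Sdhd. Capitals mark the motif of NRF1, a known activator of respiratory chain genes, (GCGC, any base, TGCGC), and the ETS family motif CCGGAAG, on either strand. No matches overlap.
Sdha: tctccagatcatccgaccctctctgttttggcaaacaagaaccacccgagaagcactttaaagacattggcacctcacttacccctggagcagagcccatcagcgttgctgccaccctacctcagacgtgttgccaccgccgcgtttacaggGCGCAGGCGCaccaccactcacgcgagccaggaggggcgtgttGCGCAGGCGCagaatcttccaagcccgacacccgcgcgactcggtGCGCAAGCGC
Sdhb: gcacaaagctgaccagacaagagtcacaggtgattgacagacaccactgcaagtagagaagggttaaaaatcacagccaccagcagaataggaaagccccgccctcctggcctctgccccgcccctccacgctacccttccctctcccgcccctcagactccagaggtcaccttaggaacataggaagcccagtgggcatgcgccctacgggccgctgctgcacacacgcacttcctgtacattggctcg
Sdhd: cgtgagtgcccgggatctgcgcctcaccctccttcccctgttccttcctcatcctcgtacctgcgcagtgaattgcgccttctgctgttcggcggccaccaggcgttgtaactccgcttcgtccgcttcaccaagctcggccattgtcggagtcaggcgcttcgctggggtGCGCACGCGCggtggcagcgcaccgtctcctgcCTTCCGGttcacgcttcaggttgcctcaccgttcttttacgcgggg

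Sdha held 3 NRF1 matches, Sdhd 1 NRF1 and 1 ETS match and Sdhb none. With Sdhc missing, a link of the matches to the knockout values was not tested. Of the 64 subunit genes with a promoter entry, 13 held the NRF1 motif, or 20.31%, against 5.84% of 17492 protein-coding genes. The ETS motif was in 12 of the 64 (18.75%, against 10.17%). The full GR motif (AGAACA, any 3 bases, TGTTCT) was in 0 of the 64 and in 0.01% of protein-coding genes. A match describes the letters of the window, and these data hold no measure of binding.

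**Figure D5:**
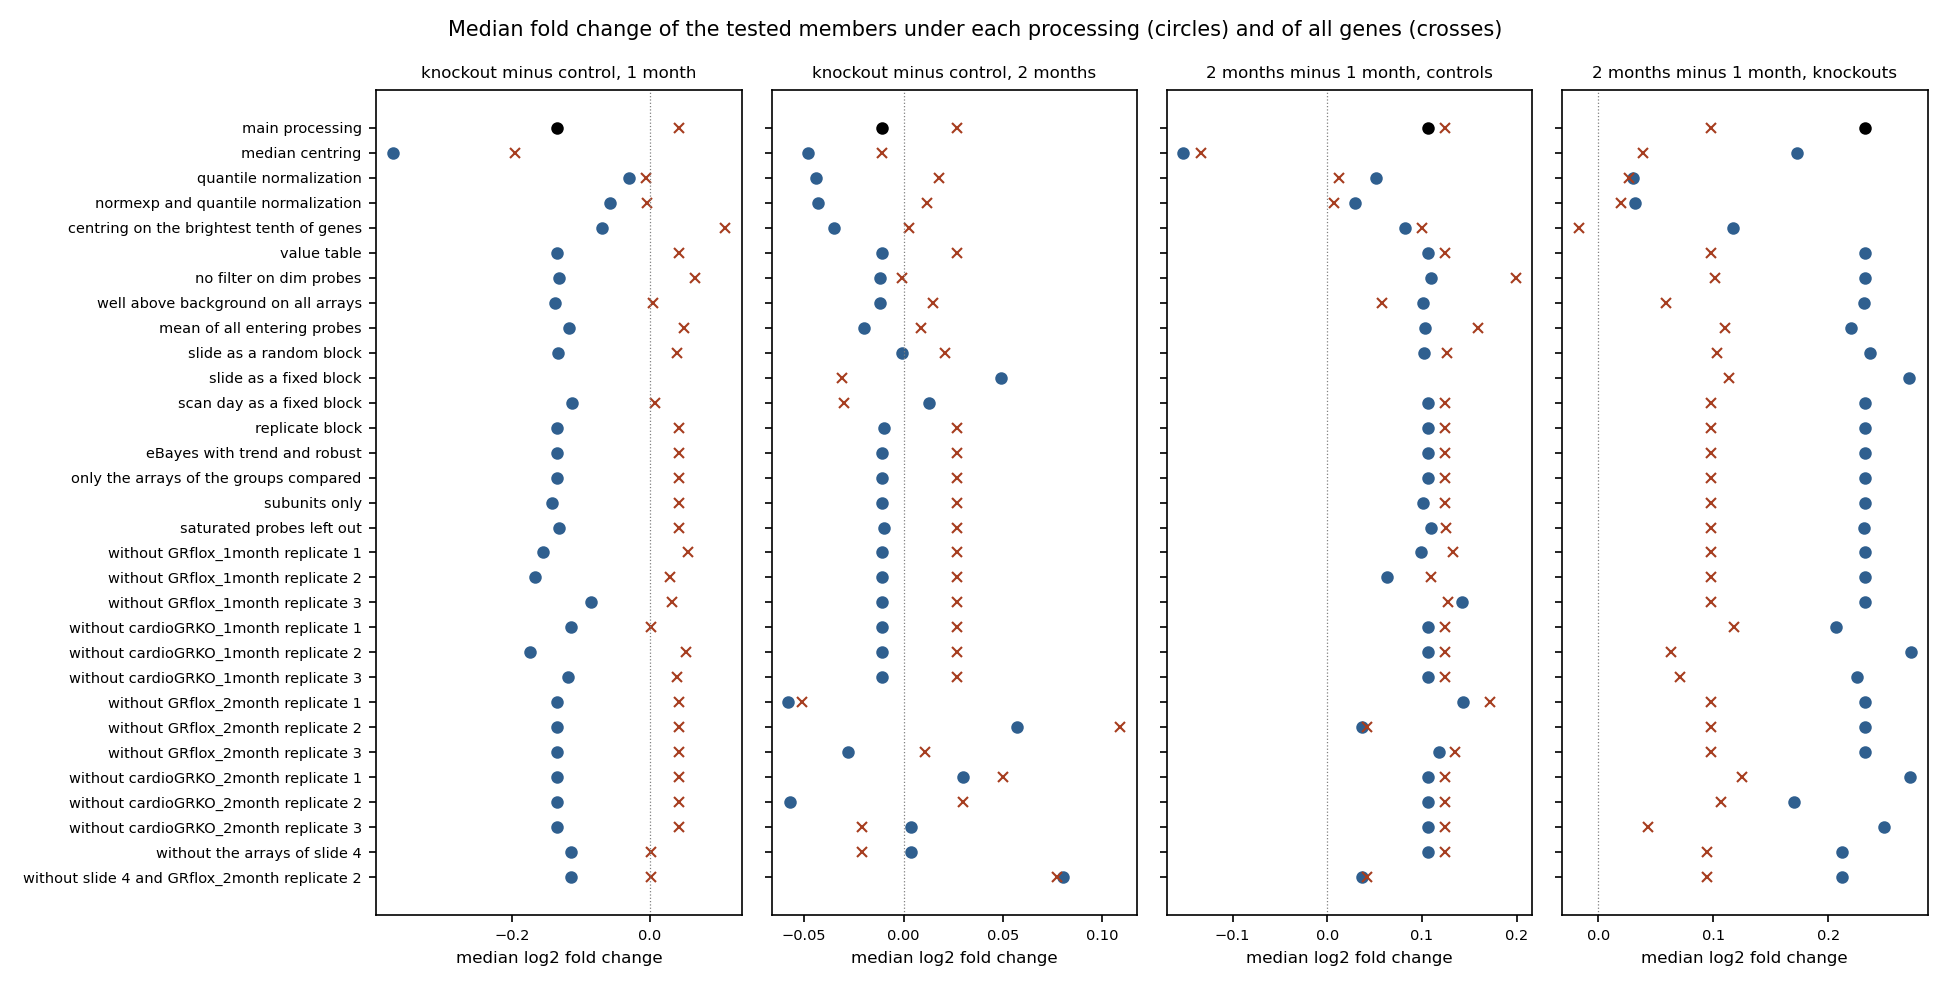
Median log2 fold change of the tested genes of the set (circles, black for the processing used in the text) and of all genes (crosses), in 4 comparisons. Each alternative processing is drawn except centring on the median member. The 1-month median was below 0 in 29 of 30 alternatives, lowest at -0.372 with median centring, where that of all genes was -0.195. The exception, 0.028, came from centring on the median member, which places the set near 0 by construction. The 2-month median runs from -0.058 to 0.080.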

How the data were processed

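Total RNA of 12 mouse hearts was hybridised to Agilent 1-colour arrays, 1 array per heart. Agilent Feature Extraction 9.5 read the scans, per the submitters' processing notes. Its processed signal, deposited by the authors, is a linear intensity corrected for spatial trends, per the file headers, and the deposited value table equals it (largest relative difference 0). Control and non-uniform spots were left out, spots of a probe were averaged, and a probe entered if well above background on at least 3 arrays. Levels are log2 intensity minus the array's 75th percentile. All 12 arrays entered 1 fit of group means (limma 3.58.1, R 4.3.3), with two-sided tests and Benjamini-Hochberg adjustment over 22129 genes at 0.05. Figures used Python 3.11.15 and matplotlib 3.10.9. The fit was tested on simulated data. Of the 83 names, 81 were matched to GRCm38.p6 by accession and 2 by symbol. Named were Sdhb, Atp5g1 and Ndufb3, the isoform pairs, the genes that passed and the lowest and highest of each complex or list, some of which are not reported here; genes named beyond these, such as further complex II or fat markers, were chosen after their values were seen. The genes and lists were chosen with earlier results of these data known. Alternatives covered scaling, background correction, filters, probes per gene, slide, scan day, replicate number, moderation, saturation and leaving out arrays. The labels do not say whether the replicate numbers pair the hearts. Correlations of the deviations of same-numbered hearts ran from -0.695 to 0.494, and with 3 hearts per group these cannot settle it. The number of arrays limits the precision of every value.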

Additional observations from a re-analysis of the deposited data

How the results depend on the processing

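For the knockout at 1 month, at 2 months and for the difference between ages, 0 genes of the set passed in every alternative run. For the knockout averaged over ages, 1 gene (Sdhb) passed with trend and robust moderation. For age in controls, 1 gene (Atp5s) passed with quantile normalization, centring on the top decile by brightness, probes well above background on all arrays, scan day as a block, and trend and robust moderation; for age in knockouts, 1 gene (Atp5s) passed with the last of these. For the mean age effect, where 4 genes passed, the count was 14 with trend and robust moderation, 10 with probes well above background on all arrays, 7 with scan day as a block, 2 without a filter on dim probes, with slide as a random block, with subunits only, without slide 4 and with centring on the median member, 1 with quantile normalization, centring on the top decile by brightness and without both slide 4 and GRflox_2month replicate 2, and 0 with median centring. It was 1 with the replicate block, which changed no other count of calls. Leaving out 1 array gave 1 to 6. The cause of these changes was not tested. Leave-one-out medians of the set ran from -0.173 to -0.085 for the knockout at 1 month, -0.058 to 0.057 at 2 months, 0.037 to 0.143 for age in controls and 0.170 to 0.272 in knockouts. Centring on the median member and the last removal of slide 4 with a further array were chosen after the data were seen. Slide as a fixed block could be fitted only for the knockout at 2 months and age in knockouts. Of 23 genes with several entering probes, the probes had the same sign in 17 at 1 month and 12 at 2 months. The brightest probes lay far above background, so depth limits Cox4i2 and Cox8c alone among the members.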
